A study of Rattus norvegicus with 25 samples.

Results

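Aminoacyl-tRNA synthetases were read in 7 stable lines of McArdle-RH7777, a rat hepatoma cell line. The measurements came from 25 Affymetrix rat genome arrays. The genes were taken by name: every cytosolic or mitochondrial synthetase and the 3 scaffold proteins of the multisynthetase complex that a probe set with a single gene symbol represented. The rule used no measured value and found 55 of 31042 probe sets and 36 of 14217 genes, of which 20 were cytosolic synthetases (35 probe sets), 13 mitochondrial synthetases (16 probe sets) and 3 scaffold proteins (4 probe sets). Lars2, Mars2 and Pars2 were not analysed here.

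The lines of interest expressed Sar1B:H79G, a Sar1B that cannot hydrolyse its GTP and so stays active in the coat protein II (COPII) machinery that buds vesicles from the endoplasmic reticulum. They comprised 2 lines with 4 arrays each and were set against 1 line expressing Sar1A (4 arrays), 2 lines expressing Sar1B (4 arrays each) and 2 control lines (2 and 3 arrays) without a Sar1 construct. All lines were clones that carried a tetracycline repressor and were kept in blasticidin and Zeocin, the constructs were human and FLAG-tagged under a tetracycline-responsive promoter, and tetracycline (1 µg/ml) was present for the last 24 h of each culture. The paper reports more recombinant Sar1 in its Sar1A lines than in its Sar1B:H79G lines, and a wider gap to its Sar1B lines. The amount of construct protein thus differed between the groups, and its part in the differences below was not tested. The question was how the mutant, and the 2 native isoforms, altered gene expression in these cells.

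A synthetase joins an amino acid to its tRNA, which is then called charged. Mammalian cells have separate sets of these enzymes for the cytosol and for mitochondria, both encoded in the nucleus, and in mammals Gars1 and Kars1 each serve both compartments. Several cytosolic enzymes sit in a multisynthetase complex held together by Aimp1, Aimp2 and Eef1e1. When eIF2 is phosphorylated, for example under endoplasmic reticulum stress or amino acid shortage, mammalian cells translate more ATF4, a transcription factor, and many cytosolic synthetase genes are known ATF4 targets.

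Values are the log2 signals that the authors normalized, averaged over the arrays of a line. Groups were compared with limma over line means and called at a Benjamini-Hochberg adjusted p under 0.05 over all 31042 probe sets. Each gene is given by its brightest probe set. A difference of log2 values is called a fold change below. The median signal of an array lay between 8.10 and 8.16, and 1 or 2 lines per group limited the precision of every value. The hepatocyte markers that were measured lay between the 75th and the 100th percentile of all probe sets, while those of fibroblasts, leukocytes and endothelium lay between the 9th and the 51st. The sample titles of all control arrays carry a code of a different form from that of all other arrays. This code was read as an array series, which no label states. An effect of the array series and an effect of any Sar1 construct over control thus cannot be told apart. The 5′ minus 3′ gap of the spike-in controls was -1.16 and -1.14 in the Sar1B:H79G lines, -1.15 in the Sar1A line, -1.14 and -1.08 in the Sar1B lines and -1.86 and -1.93 in the control lines. The gap for β-actin was -0.71 and -0.63 in the Sar1B:H79G lines, -0.61 in the Sar1A line, -0.50 and -0.49 in the Sar1B lines and -0.81 and -0.94 in the control lines. The arrays of Sar1B:H79G, Sar1A and Sar1B were all of a single array series by this code, and the part of RNA quality in their differences was not tested.

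Cytosolic synthetase mRNAs were higher in the Sar1B:H79G lines, and mitochondrial ones mostly were not called. Against control, 18 of 20 cytosolic genes rose, 0 fell, and the median fold change was 1.06. Over all genes, 13.4% were called higher in that comparison and the median was 0.02. Against Sar1B, 12 of 20 cytosolic genes rose and 0 fell, with a median of 0.54, where 4.90% of all genes were called higher and the median was 0.01. Against Sar1A, 5 of 20 rose and 0 fell, with a median of 0.51, where 1.98% of all genes were called higher, 2.22% lower and the median was 0.01. The 13 mitochondrial genes had medians of 0.07 against control, -0.11 against Sar1B and -0.11 against Sar1A. Of these 13 genes, 1 rose and 0 fell against control, and 1 rose and 1 fell against Sar1B. Over all genes, 10.6% were called lower against control and 7.18% against Sar1B. With limma, 0 of 13 were called against Sar1A, 2 having an unadjusted p under 0.05, and 3 were called when each array was taken as a replicate. No array of Sar1B:H79G overlapped with those of control for 18 of 20 cytosolic genes, all of them above, where this was so for 18.1% of all genes. Against Sar1B the arrays lay wholly above for 14 of 20, where this was so for 7.88% of all genes, and against Sar1A for 15 of 20, where it was 9.68%. In a bulk extract, more RNA in each cell and more cells with high RNA cannot be told apart.

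The count against control was 11 without control line 2, and the count against Sar1B was 7 without Sar1B line 2. With each array as a replicate, 17 of 20 cytosolic genes were called higher and 2 lower (Farsa and Tars3) against Sar1B, and 16 of 20 higher and 1 lower (Tars3) against Sar1A. Of the 5 calls against Sar1A, that of Cars1 was kept in each fit that left out a line. Without either Sar1B:H79G line those of Eprs1, Nars1 and Gars1 were lost, without either control line those of Sars1 and Gars1, and without either Sar1B line that of Nars1.

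**Figure D1:**
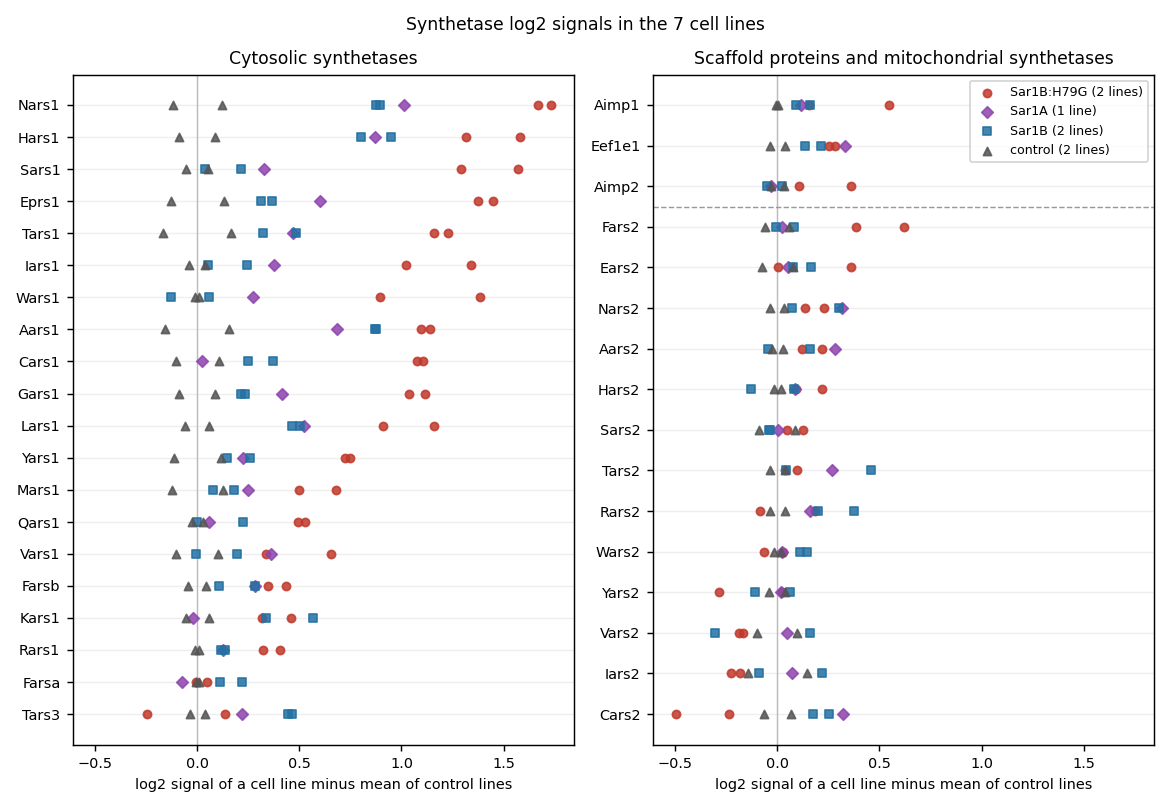
Log2 signal of each of the 36 genes in each of the 7 cell lines, minus the mean of the 2 control lines (x axis, log2 units), with 1 point per line. Cytosolic synthetases are in the left panel and scaffold proteins (above the dashed line) and mitochondrial synthetases in the right one. The Sar1B:H79G lines stood to the right of all other lines for most cytosolic genes, with medians of 0.90 and 1.06, while their medians over the mitochondrial genes were 0.09 and 0.04.

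The start regions of these genes were searched for the core of the C/EBP-ATF response element, TGATGNAA on either strand (TTNCATCA on the other), a DNA element that ATF4 is known to bind with a C/EBP partner. RefSeq windows of 300 bases (250 before and 50 from the annotated start, build GRCr8) were at hand for 34 of the 36 genes, all but Gars1 and Rars1. The core was present in 7 of 18 cytosolic windows (38.9%), in 0 of 13 mitochondrial windows, in 0 of 3 scaffold windows and in 3.98% of the 33469 windows of all genes. A match describes letters in a window and does not show a binding site. The motif was chosen with the expression values known. The 7 genes with the core were Aars1, Cars1, Iars1, Mars1, Nars1, Tars1 and Yars1, all of which rose against control. The stretches around the core are shown to give its setting in each gene. Only the core was searched for, and the bases beside it differ between the genes. They are in the 5′ to 3′ direction of each gene, with the core in capitals:
Nars1: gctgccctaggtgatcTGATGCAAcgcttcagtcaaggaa
Tars1: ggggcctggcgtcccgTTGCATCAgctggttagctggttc
Iars1: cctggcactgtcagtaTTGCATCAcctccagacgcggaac
Aars1, upstream match: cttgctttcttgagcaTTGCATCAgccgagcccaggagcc
Aars1, downstream match: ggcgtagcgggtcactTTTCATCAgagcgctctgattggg
Cars1: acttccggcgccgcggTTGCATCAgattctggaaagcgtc
Yars1: gagctacgagctcagcTGATGCAAcctg
Mars1: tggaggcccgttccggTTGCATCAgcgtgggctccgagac

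The stretch of Nars1 lies at chr18:60275773-60275812 (minus strand), that of Tars1 at chr2:62114806-62114845 (minus), that of Iars1 at chr17:15193653-15193692 (minus) and that of Cars1 at chr1:208225329-208225368 (minus). Those of Aars1 lie at chr19:55908354-55908393 and chr19:55908475-55908514 (plus), that of Yars1 at chr5:146820185-146820212 (plus) and that of Mars1 at chr7:65023747-65023786 (minus). In 7 of the 8 matches the variable base made the core TGATGCAA or its reverse, and the downstream match of Aars1 was the exception. The core began 112 bases before the start of Aars1, and between 14 and 27 bases before the start of Nars1, Mars1, Iars1 and Tars1. In Cars1, Yars1 and the second match of Aars1 it lay after the start, in the transcribed part of the window. The core was not in the windows of Sars1, Eprs1, Wars1, Hars1, Lars1, Qars1, Vars1, Farsb and Kars1, which also rose against control. TGACGTCA, a palindrome that cAMP-response-element factors are known to bind, was in 0 of the 34 windows and in 1.83% of all windows. CCAAT, a common promoter element, was on either strand in 10 of 18 cytosolic, 5 of 13 mitochondrial and 2 of 3 scaffold windows, and in 37.49% of all windows.

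**Figure D2:**
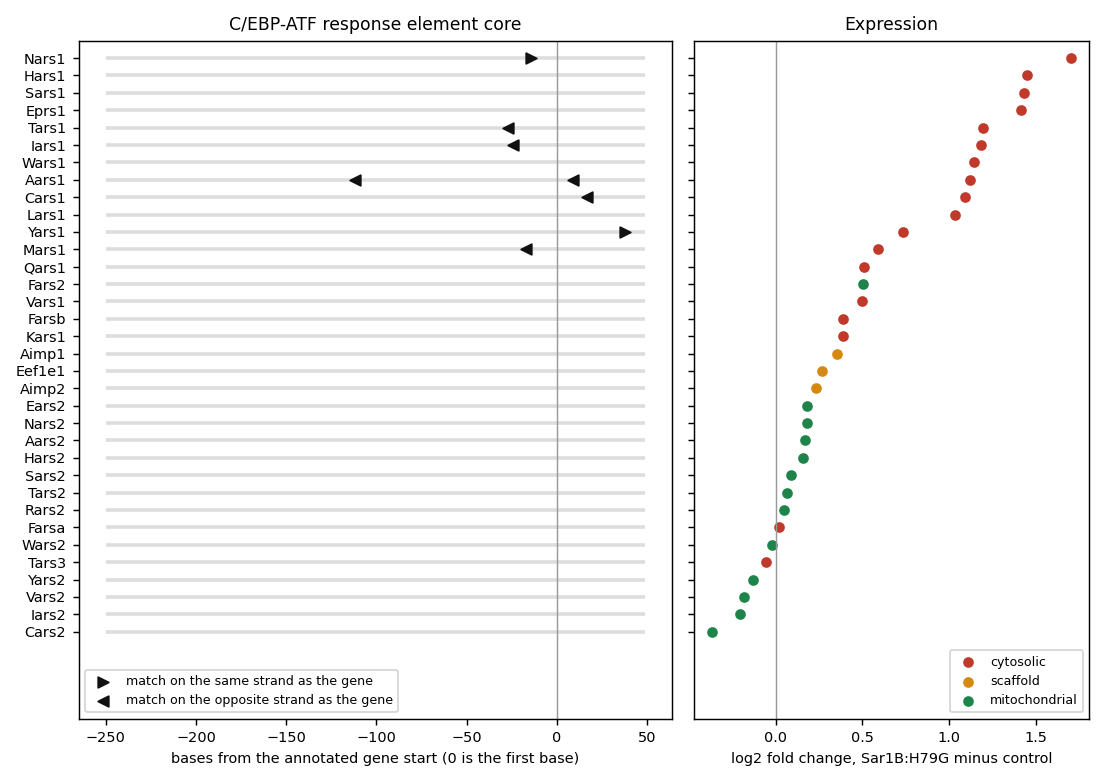
Position of each match to the response element core in the window of each gene (left, bases from the annotated start; arrowheads give the strand) beside the fold change of Sar1B:H79G minus control (right, log2 units, 1 point per gene). The 34 genes are in order of fold change, and the 7 genes with a match all lie in the upper part.

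Among the cytosolic enzymes outside the multisynthetase complex, 11 of 13 rose against control, 8 of 13 against Sar1B and 4 of 13 against Sar1A. The shares of all genes called higher were 13.4%, 4.90% and 1.98%. Sars1 (1375441_at), which charges serine tRNA and the tRNA for selenocysteine, had log2 signals of 12.48 and 12.76 in the Sar1B:H79G lines, 11.51 in the Sar1A line, 11.40 and 11.22 in the Sar1B lines and 11.24 and 11.13 in the control lines. Both Sar1B:H79G lines lay above all others, and the arrays of the group (12.3 to 12.9) did not overlap with those of any other group. The fold change was 1.31 ± 0.11 (SE) against Sar1B, or 2.47-fold on the linear scale (adjusted p = 0.00375, limma), 1.43 ± 0.11 against control (adjusted p = 0.00158) and 1.10 ± 0.14 against Sar1A (adjusted p = 0.0193). It was the largest fold change of the 36 genes against Sar1B.

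Wars1 (1388574_at), the tryptophanyl enzyme, had 11.31 and 11.80 in the Sar1B:H79G lines, 10.69 in the Sar1A line, 10.47 and 10.29 in the Sar1B lines and 10.43 and 10.41 in the control lines. It rose by 1.18 ± 0.16 against Sar1B (adjusted p = 0.0106, limma) and 1.14 ± 0.16 against control (adjusted p = 0.00682), while its fold change of 0.87 ± 0.20 against Sar1A was not called (adjusted p = 0.0845). The Sar1B:H79G lines differed from each other by more for Wars1 than for any other cytosolic enzyme, line 2 being higher by 0.49. With control line 2 left out Wars1 was not called against control (adjusted p = 0.068), nor with Sar1B line 2 left out against Sar1B (adjusted p = 0.051).

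Nars1 (1374437_at), which charges asparagine tRNA, had 12.94 and 12.88 in the Sar1B:H79G lines, 12.22 in the Sar1A line, 12.10 and 12.08 in the Sar1B lines and 11.32 and 11.08 in the control lines. The levels formed 3 steps, with Sar1B:H79G on top, the Sar1A and Sar1B lines together in the middle and the control lines lowest, and no array crossed between them. Nars1 rose by 1.70 ± 0.09 against control, or 3.26-fold, the largest fold change of the 36 genes in that comparison (adjusted p = 0.000898, limma). It rose by 0.82 ± 0.09 against Sar1B (adjusted p = 0.00636) and 0.69 ± 0.11 against Sar1A (adjusted p = 0.0366). It was also the only cytosolic synthetase called in Sar1A against control, at 1.01 ± 0.11 (adjusted p = 0.0338).

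Gars1 (1388715_at), the glycyl enzyme of both compartments, had 13.28 and 13.20 in the Sar1B:H79G lines, 12.58 in the Sar1A line, 12.38 and 12.40 in the Sar1B lines and 12.25 and 12.08 in the control lines. It rose by 0.85 ± 0.08 against Sar1B (adjusted p = 0.00439, limma), 1.08 ± 0.08 against control (adjusted p = 0.0013) and 0.66 ± 0.10 against Sar1A (adjusted p = 0.0279). On this probe set the Sar1B:H79G lines differed by less than 0.1 and lay apart from every other line. On the second probe set of Gars1 they had 11.52 and 11.11, and the fold change of 0.54 against Sar1A was not called (adjusted p = 0.435, limma). Kars1, the lysyl enzyme that also serves both compartments, stood differently, with a fold change of -0.06 against Sar1B (95% interval -0.31 to 0.18).

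Tars1 (1372145_at), the threonyl enzyme, had 12.62 and 12.68 in the Sar1B:H79G lines, 11.93 in the Sar1A line, 11.94 and 11.78 in the Sar1B lines and 11.63 and 11.29 in the control lines. It rose by 0.79 ± 0.12 against Sar1B (adjusted p = 0.0162, limma) and 1.19 ± 0.12 against control (adjusted p = 0.00305), and had 0.72 ± 0.15 against Sar1A (adjusted p = 0.0684). Without Sar1B line 2 or Sar1B:H79G line 2 the call against Sar1B was lost (highest adjusted p = 0.0756). Tars3 (1376630_at), a second threonyl-tRNA synthetase gene closely related to Tars1, did not share this pattern. Its signals were 9.36 and 9.74 in the Sar1B:H79G lines, 9.83 in the Sar1A line, 10.07 and 10.05 in the Sar1B lines and 9.64 and 9.57 in the control lines, with a fold change of -0.51 against Sar1B that was not called (adjusted p = 0.0621, limma). It was called lower in 4 of 16 alternatives, namely with each array as a replicate, with the line as a random block, with the filter on dim probe sets and without Sar1B:H79G line 2. Its arrays in Sar1B:H79G all lay below those in Sar1B, the only cytosolic gene of which this was so, where 10.5% of all genes had no overlap in that direction.

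Cars1 (1374034_at), the cysteinyl enzyme, had 11.33 and 11.30 in the Sar1B:H79G lines, 10.24 in the Sar1A line, 10.47 and 10.59 in the Sar1B lines and 10.33 and 10.12 in the control lines. The Sar1A line lay among the control lines, and only the Sar1B:H79G lines stood far from the rest. Cars1 rose by 0.78 ± 0.09 against Sar1B (adjusted p = 0.00691, limma), 1.09 ± 0.09 against control (adjusted p = 0.00174) and 1.07 ± 0.11 against Sar1A (adjusted p = 0.0119). The call against Sar1A held for 2 of its 4 probe sets, and those against control and against Sar1B for 3 of 4.

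Hars1 (1395533_at), the histidyl enzyme, had 10.86 and 11.13 in the Sar1B:H79G lines, 10.42 in the Sar1A line, 10.50 and 10.35 in the Sar1B lines and 9.64 and 9.46 in the control lines. As for Nars1, the native Sar1 lines lay between the mutant and the control lines on this probe set. On the second probe set of Hars1 the fold changes against control were only 0.06 in Sar1B and 0.02 in Sar1A. By its brightest probe set, Hars1 rose by 0.57 ± 0.12 against Sar1B (adjusted p = 0.0359, limma) and 1.45 ± 0.12 against control (adjusted p = 0.00157), and had 0.58 ± 0.14 against Sar1A (adjusted p = 0.105). The call against Sar1B was lost without any one of control line 1, control line 2, Sar1B line 1, Sar1B line 2 and Sar1B:H79G line 2 (highest adjusted p = 0.157).

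Yars1 (1372009_at), the tyrosyl enzyme, had 12.19 and 12.22 in the Sar1B:H79G lines, 11.69 in the Sar1A line, 11.73 and 11.61 in the Sar1B lines and 11.58 and 11.35 in the control lines. It rose by 0.53 ± 0.09 against Sar1B (adjusted p = 0.0237, limma) and 0.74 ± 0.09 against control (adjusted p = 0.00518), and had 0.51 ± 0.11 against Sar1A (adjusted p = 0.0836). The call against Sar1B was lost when any line of Sar1B:H79G or Sar1B was left out (highest adjusted p = 0.112).

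The other cytosolic enzymes outside the complex moved less between the mutant and the native isoforms. Aars1, the alanyl enzyme, had 12.34 and 12.38 in the Sar1B:H79G lines, 11.93 in the Sar1A line, 12.12 and 12.11 in the Sar1B lines and 11.40 and 11.09 in the control lines. It rose by 1.12 against control (adjusted p = 0.00253, limma), but its fold change of 0.24 against Sar1B was not called (95% interval -0.02 to 0.51). Vars1, the valyl enzyme, rose by 0.50 against control and had 0.40 against Sar1B. The call of Vars1 against control (adjusted p = 0.048) was lost in 10 of 16 alternative settings, among them each leave-one-out fit except that without Sar1B:H79G line 2. Farsa and Farsb are the α and β subunits of the cytosolic phenylalanyl enzyme, which works as a tetramer of both. Farsb rose by 0.39 against control and had 0.19 against Sar1B, while Farsa had 0.02 against control (95% interval -0.14 to 0.19) and -0.14 against Sar1B (95% interval -0.31 to 0.02). The call of Farsb was lost without either control line or either Sar1B:H79G line.

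Within the multisynthetase complex, all 7 enzymes measured rose against control, 4 rose against Sar1B and 1 rose against Sar1A. Called higher among all genes were 13.4%, 4.90% and 1.98%. Eprs1 (1373418_at), a single protein that charges glutamic acid and proline tRNAs, had 13.16 and 13.09 in the Sar1B:H79G lines, 12.31 in the Sar1A line, 12.02 and 12.08 in the Sar1B lines and 11.84 and 11.58 in the control lines. It rose by 1.07 ± 0.10 against Sar1B, or 2.10-fold (adjusted p = 0.00409, limma), 1.41 ± 0.10 against control (adjusted p = 0.00111) and 0.81 ± 0.12 against Sar1A (adjusted p = 0.0277). Its groups did not overlap in any of these comparisons. The call of Eprs1 against Sar1A held for 1 of its 4 probe sets, and those against control and against Sar1B for 3 of 4.

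Iars1 (1376418_a_at), the isoleucyl enzyme, had 12.19 and 12.51 in the Sar1B:H79G lines, 11.54 in the Sar1A line, 11.22 and 11.41 in the Sar1B lines and 11.21 and 11.13 in the control lines. It rose by 1.03 ± 0.12 against Sar1B (adjusted p = 0.00707, limma) and 1.18 ± 0.12 against control (adjusted p = 0.00305), and its 0.80 ± 0.15 against Sar1A fell just outside the threshold (adjusted p = 0.0514). The second probe set of Iars1, at the 51st percentile, was called against control at 0.52. It was not called against Sar1B, at 0.23 (adjusted p = 0.12, limma), or against Sar1A, at 0.16. Lars1 (1374118_at), the leucyl enzyme, had 11.40 and 11.64 in the Sar1B:H79G lines, 11.01 in the Sar1A line, 10.99 and 10.95 in the Sar1B lines and 10.54 and 10.43 in the control lines. The native Sar1 lines again lay between the mutant and the control lines. Lars1 rose by 0.55 ± 0.10 against Sar1B (adjusted p = 0.0248, limma) and 1.03 ± 0.10 against control (adjusted p = 0.00243), and had 0.51 ± 0.12 against Sar1A (adjusted p = 0.0954). The call against Sar1B was lost without control line 1, control line 2, Sar1B line 1, Sar1B line 2 or Sar1B:H79G line 2 (highest adjusted p = 0.109).

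Qars1, the glutaminyl enzyme, rose by 0.51 against control and by 0.40 against Sar1B (adjusted p = 0.047, limma), and the call against Sar1B was lost in 10 of 16 alternative settings. Without either control line both calls of Qars1 were lost, and that against Sar1B was also lost without Sar1B line 1 or either Sar1B:H79G line. Mars1 (methionyl), Rars1 (arginyl) and Kars1 rose by 0.59, 0.36 and 0.39 against control and were not called against Sar1B, where they had 0.46, 0.24 and -0.06. Under quantile normalization Qars1, Rars1, Kars1, Farsb and Vars1 were not called against control, and the median over the 20 cytosolic genes was 0.86. Single lines also mattered here, since Mars1 and Rars1 lost the call without control line 2, Mars1 without Sar1B:H79G line 1, Rars1 without Sar1B:H79G line 2, and Kars1 without either line of either group.

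Of the 3 scaffold proteins, 1 was called against control, where 13.4% of all genes were called higher. Eef1e1 rose by 0.27 against control (adjusted p = 0.0365, limma), a call that was lost in all 6 fits that left out a line. Aimp1 and Aimp2 had 0.35 and 0.23 against control on their brightest probe sets and were not called, and the 3 had between 0.09 and 0.25 against Sar1B. The second probe set of Aimp1 was called higher against control, by 0.49 (adjusted p = 0.0339, limma). On its brightest probe set, Aimp1 lay higher in Sar1B:H79G line 2 (11.89) than in line 1 (11.50), against 11.46 in the Sar1A line, 11.50 and 11.44 in the Sar1B lines and 11.34 and 11.35 in the control lines.

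**Figure D3:**
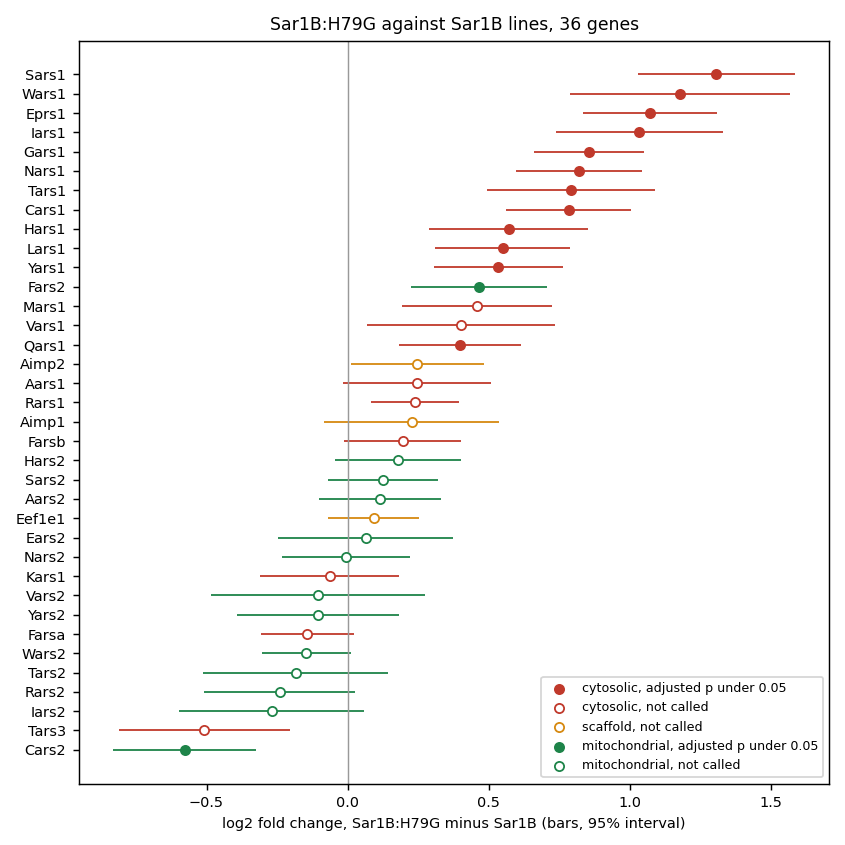
Fold change of Sar1B:H79G minus Sar1B for the 36 genes (x axis, log2 units) with 95% intervals, in order of size; filled points passed the test. Sars1 stood at the top with 1.31 and Cars2 at the bottom with -0.58, and 11 of the 12 genes with the highest fold changes were cytosolic.

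Synthetases fall into 2 structural classes with unrelated catalytic folds, and both classes rose. Of 10 class I genes, 10 rose against control, 7 against Sar1B and 2 against Sar1A. Eprs1, which has a class I and a class II part, was counted in class I only and was called in each of these comparisons. Of 10 class II genes, 8 rose against control, 5 against Sar1B and 3 against Sar1A. The 12 cytosolic genes that have been described as induced by ATF4 in mammalian cells were all called higher against control, with a median of 1.13, and 10 of them were called against Sar1B, with a median of 0.80. Of the 8 other cytosolic genes, 6 rose against control, with a median of 0.39, and 2 against Sar1B, with a median of 0.22. The list of 12 was chosen with earlier results of these data known, so these counts only describe it. Whether ATF4 had a part in the differences was not tested. For all genes, the shares called higher were 13.4% against control, 4.90% against Sar1B and 1.98% against Sar1A.

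Among the mitochondrial enzymes, Fars2 and Cars2 were the only ones called in a comparison with Sar1B:H79G, and they moved in opposite directions. Fars2 (1390267_at), the mitochondrial phenylalanyl enzyme, which works as a single chain, had 9.95 and 9.71 in the Sar1B:H79G lines, 9.35 in the Sar1A line, 9.32 and 9.41 in the Sar1B lines and 9.38 and 9.27 in the control lines. It rose by 0.47 ± 0.10 against Sar1B (adjusted p = 0.0407, limma) and 0.50 ± 0.10 against control (adjusted p = 0.0186), and had 0.48 ± 0.12 against Sar1A (adjusted p = 0.111). Its arrays in Sar1B:H79G lay above those of every other group. The call against control was lost without either control line or without Sar1B:H79G line 1 (highest adjusted p = 0.119), and that against Sar1B without any line but Sar1B:H79G line 2 (highest adjusted p = 0.142).

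Cars2 (1383134_at), the mitochondrial cysteinyl enzyme, had 8.02 and 7.76 in the Sar1B:H79G lines, 8.58 in the Sar1A line, 8.43 and 8.51 in the Sar1B lines and 8.33 and 8.19 in the control lines. Both Sar1B:H79G lines lay below all other lines. Cars2 fell by 0.58 on the log2 scale against Sar1B (SE 0.10, adjusted p = 0.0256, limma), and its fold changes of -0.37 ± 0.10 against control (adjusted p = 0.0528) and -0.69 ± 0.13 against Sar1A (adjusted p = 0.052) fell just outside the threshold. The call against Sar1B was lost without control line 1, control line 2, Sar1B line 1, Sar1B line 2 or Sar1B:H79G line 2 (highest adjusted p = 0.115), and the sign was negative in each of the 16 alternative settings for all 3 comparisons.

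The other 11 mitochondrial genes had fold changes between -0.28 and 0.18 in all 3 comparisons with Sar1B:H79G, and none was called with limma at an adjusted p under 0.05. These were Aars2, Ears2, Hars2, Iars2, Nars2, Rars2, Sars2, Tars2, Vars2, Wars2 and Yars2. For Nars2, whose cytosolic counterpart had the largest fold change against control, the fold change against Sar1B was -0.01 with a 95% interval of -0.23 to 0.22. Its probe set lay at the 20th percentile of all probe sets. Without detection calls, whether this signal stood above background cannot be told. Iars2 had -0.20 against control, -0.27 against Sar1B and -0.28 against Sar1A, and its arrays in Sar1B:H79G lay below those in Sar1A.

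Cytosolic and mitochondrial enzymes for one amino acid could be set side by side in 14 pairs, Fars2 being paired with Farsa and with Farsb. The cytosolic fold change was the higher in 12 of 14 pairs against control, in 12 of 14 against Sar1B and in 12 of 14 against Sar1A. Both exceptions were the phenylalanyl pairs in each comparison. Mean signals ran from 7.19 (Nars2) to 10.62 (Tars2) among the mitochondrial genes. Among the cytosolic genes they ran from 9.77 (Tars3) to 12.64 (Gars1). Whether the dimmer signals lessened the mitochondrial fold changes was not tested. The widest gap against Sar1B was between Cars1 at 0.78 and Cars2 at -0.58, followed by Wars1 at 1.18 and Wars2 at -0.15.

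**Figure D4:**
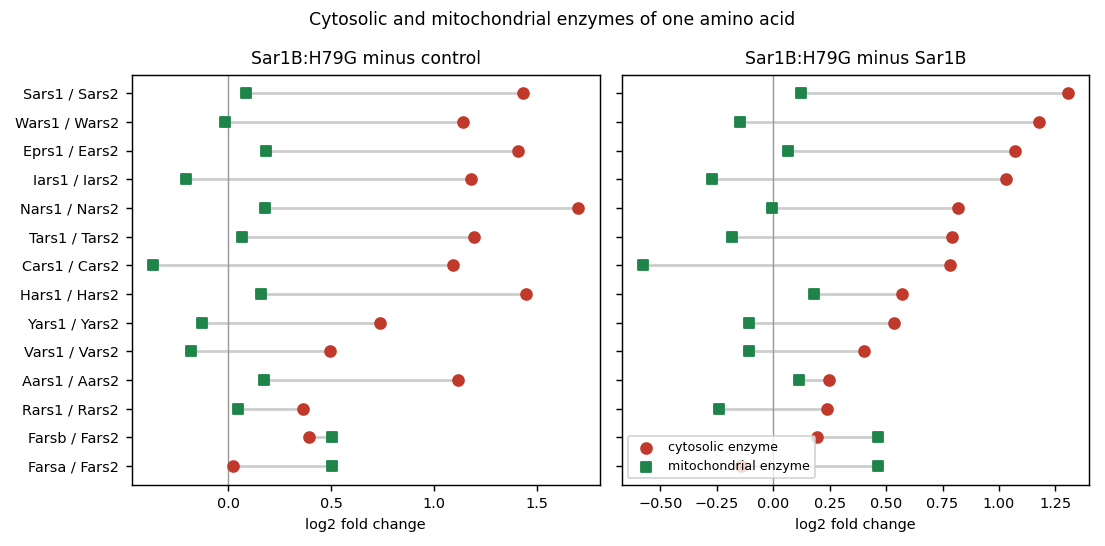
Fold changes (x axis, log2 units) of the cytosolic (circles) and mitochondrial (squares) enzyme of each of 14 pairs, for Sar1B:H79G minus control (left) and Sar1B:H79G minus Sar1B (right). The cytosolic point lay to the right in 12 of 14 pairs in either comparison, all but those of Farsa and Farsb with Fars2.

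Hars1 and Hars2 are neighbours that are read in opposite directions from a common stretch of DNA, with 143 bases between their annotated starts. The RefSeq window of Hars2, at chr18:28672606-28672905 (GRCr8, plus strand), shares 243 bases with that of Hars1 and is shown because it serves both genes. The capital A marks the position of the first base of Hars1, which is read leftward from the other strand, and the capital C the first base of Hars2, which is read rightward:
Hars2 window: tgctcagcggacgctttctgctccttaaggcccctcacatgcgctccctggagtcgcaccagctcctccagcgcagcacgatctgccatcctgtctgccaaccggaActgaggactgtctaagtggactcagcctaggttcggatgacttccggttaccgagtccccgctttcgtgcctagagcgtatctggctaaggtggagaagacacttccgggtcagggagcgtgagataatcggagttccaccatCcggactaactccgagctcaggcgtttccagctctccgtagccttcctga

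Hars1 rose by 1.45 against control and by 0.57 against Sar1B, with its second probe set at 0.61 and 0.55. Hars2 was not called, with 9.23 and 9.10 in the Sar1B:H79G lines, 9.10 in the Sar1A line, 9.09 and 8.88 in the Sar1B lines and 8.99 and 9.03 in the control lines. Its fold change was 0.16 against control (95% interval -0.07 to 0.38) and 0.18 against Sar1B (95% interval -0.04 to 0.40), and its second probe set had 0.16 and 0.18.

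The native isoforms were set against control to ask what overexpression of an unmutated Sar1 did. In Sar1B against control, 5 of 20 cytosolic genes rose and 0 fell, where 4.72% of all genes were called higher and 2.01% lower, and the median fold change was 0.21. The 5 were Nars1 at 0.88, Hars1 at 0.88, Aars1 at 0.87, Lars1 at 0.48 and Kars1 at 0.45. With control line 2 left out 0 were called, with control line 1 left out 2, and with either Sar1B line left out 1. In Sar1A against control only Nars1 was called, where 0.661% of all genes were called higher and 0.204% lower, and the median over the 20 genes was 0.31. The call of Nars1 was lost without either control line or either Sar1B line. Aars1 and Hars1 had 0.68 and 0.87 in Sar1A against control (adjusted p = 0.0669 and 0.0534, limma).

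In Sar1B against control, limma called 0 of 13 mitochondrial genes, with 1 at an unadjusted p under 0.05 and 5 called when each array was a replicate. In Sar1A against control it called 0 of 13, with 3 at an unadjusted p under 0.05 and 4 called when each array was a replicate. In Sar1A against Sar1B, 0 of 20 cytosolic and 0 of 13 mitochondrial genes were called with limma, where 0.00703% of all genes were called. At an unadjusted p under 0.05 there were 3 and 0, and with each array as a replicate 5 and 1. The median fold change of Sar1A minus Sar1B was 0.05 over the cytosolic genes. Kars1 had the lowest, -0.47, with 11.71 in the Sar1A line against 12.30 and 12.07 in the Sar1B lines.

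Different probe sets of a gene read different parts of its mRNA, and 15 of the 36 genes had more than 1. Over probe sets, 29 of 35 cytosolic ones were called higher and 0 lower against control, where 13.2% of all probe sets were called higher and 9.17% lower. Against Sar1B, 20 of 35 were called higher and 0 lower, where 3.34% of all probe sets were called higher and 5.29% lower. Against Sar1A, 7 of 35 were called higher and 0 lower, where, counted by gene, 1.98% of all genes were called higher and 2.22% lower. No gene had probe sets called in opposite directions.

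Across the array series the probe sets of one gene could differ widely. Those of Eprs1 had 0.34, 1.19, 2.18 and -0.21 in Sar1B against control, but 1.07, 1.15, 1.10 and 0.17 in Sar1B:H79G against Sar1B. The fourth lay at the 37th percentile of all probe sets, and its signals were 7.73 and 7.85 in the Sar1B:H79G lines, 7.63 in the Sar1A line, 7.59 and 7.64 in the Sar1B lines and 7.87 and 7.79 in the control lines. The probe sets of Mars1 had 0.13 and 1.11 in Sar1B against control and 0.46 and 0.35 in Sar1B:H79G against Sar1B. Those of Hars1 had 0.88 and 0.06 in the first comparison and 0.57 and 0.55 in the second. The call of Hars1 in Sar1B against control thus held for 1 of its 2 probe sets, whereas both were called in Sar1B:H79G against Sar1B. Whether the array series had a part in these spreads was not tested.

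**Figure D5:**
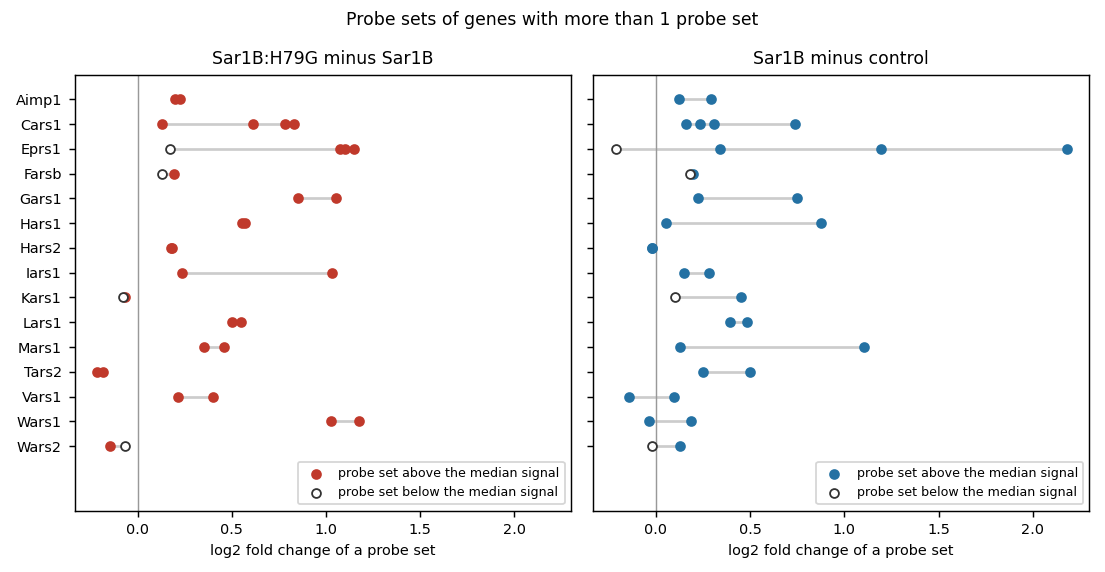
Fold change (x axis, log2 units) of each probe set of the 15 genes with more than 1 probe set, for Sar1B:H79G minus Sar1B (left, within an array series) and Sar1B minus control (right, across array series). Open circles are probe sets below the median signal. The filled points of Eprs1 lay between 1.07 and 1.15 on the left and between 0.34 and 2.18 on the right.

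Other genes of tRNA handling and of translation were read from lists of their own. Xpot, the exporter that carries tRNA out of the nucleus, had 11.66 and 11.65 in the Sar1B:H79G lines, 10.96 in the Sar1A line, 10.68 and 10.46 in the Sar1B lines and 10.26 and 10.22 in the control lines. It rose by 1.41 against control, 1.09 against Sar1B and 0.69 against Sar1A (adjusted p = 0.00099, 0.00284 and 0.0307, limma), and it was also called in Sar1A against control at 0.72. Of the 9 genes of tRNA editing, maturation and export, Xpot was the only one that rose in these comparisons. The shares of all genes called higher were 13.4% against control, 4.90% against Sar1B and 1.98% against Sar1A. Against Sar1B, 2 of the 9 fell, where 7.18% of all genes were called lower. Pstk, a kinase in the making of selenocysteinyl-tRNA, fell by 0.57 on the log2 scale, and Dtd1, which removes D-amino acids from tRNA, fell by 0.33.

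Of the 8 genes of eIF2, which brings the initiator tRNA to the ribosome, and of its exchange factor eIF2B, 4 rose against control, 3 against Sar1B and 1 against Sar1A. Against Sar1B these were Eif2b1 at 0.91, Eif2b3 at 0.77 and Eif2s1 at 0.71. Of all genes, 13.4% were called higher against control, 4.90% against Sar1B and 1.98% against Sar1A. The 5 cytosolic elongation factor genes, which bring charged tRNA to the ribosome and move it there, were called in 2 cases against control, with a median of 0.44, and in 0 against Sar1B, with a median of 0.08. Of the 8 genes that act beside the mitochondrial synthetases, Tufm and Gfm1 rose against control by 0.53 and 0.65, and 0 were called against Sar1B.

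The 4 stress response genes read beside the synthetases all rose against control and against Sar1B, where 13.4% and 4.90% of all genes were called higher. Atf4 had 14.02 and 13.67 in the Sar1B:H79G lines, 13.04 in the Sar1A line, 12.67 and 12.64 in the Sar1B lines and 12.49 and 11.96 in the control lines. It rose by 1.18 against Sar1B and by 1.61 against control, and had 0.80 against Sar1A (adjusted p = 0.164, limma). Against Sar1B, Ddit3, a transcription factor of the unfolded protein response, rose by 3.01, Trib3, a pseudokinase, by 2.04 and Asns, which makes asparagine, by 0.84. Against Sar1A, Ddit3 and Trib3 rose by 2.78 and 1.73 (adjusted p = 0.0122 and 0.0125, limma). Thus 2 of the 4 were called there, where 1.98% of all genes were called higher. Asns and Nars1, which make asparagine and join it to tRNA, thus both rose against control and against Sar1B, and Asns had 0.62 against Sar1A (adjusted p = 0.135, limma).

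Lines of a group differed in a common direction in places. Control line 1 lay above control line 2 for 20 of 20 cytosolic genes, with a median difference of 0.15, against 56.3% of all genes. Sar1B line 1 lay above Sar1B line 2 for 1 of 13 mitochondrial genes, with a median of -0.17, against 49.4% of all genes. In the Sar1B:H79G lines, line 1 was the higher for 9 of 20 cytosolic genes. One array of Sar1B line 2 was the lowest of its line for 20 of 20 cytosolic genes, by a median of -0.25 from the other arrays of the line, where the median over all genes was -0.08. It was also the lowest of its line for 10 of 13 mitochondrial genes, with a median of -0.23 over the 13. Without it, 11 of 20 cytosolic genes were called higher in Sar1B:H79G against Sar1B, and 1 of 13 mitochondrial genes was called in place of 2, the call of Fars2 being lost.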

How the data were processed

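RNA of 7 McArdle-RH7777 lines was read on 25 Affymetrix rat genome arrays. The authors used CARMAweb for loess normalization and MAS5 summarization, whose version is not given in the sources used here. They deposited log2 values, 1 for each probe set on each array, and no detection calls, so no background level was set. That the base is 2 was inferred, since the values span 1.64 to 15.4. Of 31099 probe sets, 57 array controls were left out, and 31042 were tested. Of these, 20826 carried 1 gene symbol, 436 several and 9780 none, from GEO's platform annotation. All 55 probe sets of the synthetases matched a RefSeq gene by identifier, and 0 symbols changed.

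The methods call arrays of the same line technical replicates, so a line counted as 1 replicate. Its arrays were averaged, and limma 3.58.1 (R 4.3.3) was fitted to the 7 averages with a coefficient per group and 3 residual degrees of freedom. The spread of the 1 Sar1A line was taken to equal that of the rest. Nothing shows that lines with the same number are paired, and their deviations had correlations of 0.0071, 0.192 and 0.0752 between groups. No 2 arrays held identical values. Adjusted p-values are Benjamini-Hochberg values over 31042 probe sets. In simulated data of this design over 31042 probe sets, a log2 change of 1 was called in 78% of cases for Sar1B:H79G against control. Against Sar1B it was called in 80% and against Sar1A in 67%. A log2 change of 0.5 was called in 6%, 8% and 0%, in the same order. Each size of change was given to 100 probe sets. The measured data had many more called, 4083 higher and 2845 lower for Sar1B:H79G against control. Adjusted p-values depend on that number, so these shares may not hold for the measured data.

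Every synthetase analysed here was named. Values in every line with full statistics were given for the 12 largest fold changes of Sar1B:H79G minus Sar1B, for mitochondrial genes called in a comparison with Sar1B:H79G, and for genes with probe sets called in opposite directions, and more values were given for other genes after they had been seen. The members and lists were chosen with earlier results of these data known. Alternative settings treated each array as a replicate, or used the line as a random block (statmod 1.5.0), the line number as a replicate block, quantile normalization, a median shift, a filter on dim probe sets, eBayes with trend and robust options, only the groups compared, a mean over the probe sets of each gene, and leaving out each line or 1 array.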

Additional observations from a re-analysis of the deposited data

Results flagged for a closer look

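Each of the 36 genes was read for a single array far from the rest of its group, in 144 groups of 4 to 8 arrays, and 12 had one by Dixon's test at 95%. Chance gives about 1 in 20 such groups. In the Sar1B group, 7 of the 12 were the same array of Sar1B line 2, the lowest of its group each time. It had a log2 signal of 10.0 for Hars1 (the other arrays 10.4 to 10.5), 10.7 for Lars1 (10.9 to 11.1), 11.1 for Mars1 (11.3 to 11.4), 11.9 for Nars1 (12.04 to 12.16), 11.6 for Tars1 (11.83 to 11.99), 10.0 for Wars1 (10.3 to 10.5) and 11.4 for Yars1 (11.6 to 11.8).

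In the Sar1A line, 1 array was the highest for Cars2 at 8.76 (the others 8.49 to 8.54) and for Qars1 at 11.6 (the others 11.40 to 11.42). For Cars1, 1 array of Sar1B:H79G line 1 was the highest of its group at 11.41 (the others 11.27 to 11.34). In the control group, 1 array of line 1 was the lowest for Aars2 at 8.11 (the others 8.25 to 8.30), and 1 array of line 2 was the lowest for Wars2 at 8.17 (the others 8.30 to 8.33).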

How the results depend on the processing

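No called fold change of a synthetase changed its sign under any of the 16 alternatives. For Sar1B:H79G against control, 18 cytosolic genes were called and 11 to 17 with a line left out. The 1 mitochondrial call, higher, became 6 with each array as a replicate (5 higher, 1 lower), 2 with the line as a random block, with quantile normalization, with a median shift and with trend and robust options, and 0 to 1 with a line left out. For Sar1B:H79G against Sar1B, the 12 cytosolic calls, all higher, became 19 with each array as a replicate (17 higher, 2 lower) and 7 to 10 with a line left out. The 2 mitochondrial calls, 1 higher and 1 lower, became 8 with each array as a replicate (3 higher, 5 lower), 1 with the replicate block, with trend and robust options and without the low array of Sar1B line 2 (an alternative chosen after seeing the data), 0 with only the groups compared, and 0 to 1 with a line left out. For Sar1B:H79G against Sar1A, the 5 cytosolic calls, all higher, became 17 with each array (16 higher, 1 lower), 15 with the random block, 3 with trend and robust options or the mean of probe sets, 0 with only the groups compared, and 2 to 5 with a line left out. The 0 mitochondrial calls became 3 with each array (1 higher, 2 lower), 2 with the random block, 1 with quantile normalization, a median shift, the filter on dim probe sets or trend and robust options, and 0 to 1 with a line left out.

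For Sar1B against control, the 5 cytosolic calls became 14 with each array, 11 with the random block, 3 with a median shift and 0 to 5 with a line left out, and the 0 mitochondrial calls became 5 with each array and 2 with the random block. For Sar1A against control, the 1 cytosolic call became 13 with each array, 11 with the random block, 2 with quantile normalization, the filter or trend and robust options, 5 with only the groups compared and 0 to 2 with a line left out, and the 0 mitochondrial calls became 4 with each array and 3 with the random block. For Sar1A against Sar1B, the 0 cytosolic calls became 5 with each array (2 higher, 3 lower) and 2 with the random block (both lower), and the 0 mitochondrial calls 1 with each array. A fit of fewer lines or groups has fewer degrees of freedom, and arrays of a line are not independent. The cause of the other shifts was not tested.

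With the line number as a replicate block, 16 cytosolic genes were called in Sar1B:H79G against control, 11 against Sar1B, and, against control, 3 in Sar1B and 0 in Sar1A. The numbers only name lines, so that this block pairs no samples.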
